A study of Bubalus bubalis with 12 samples.

Results

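The genes described here were grouped as carriers and carrier partners for short-chain fatty acids, ketone bodies and lactate. They are 4 proton-linked or facilitative carriers of the SLC16 family (SLC16A1, SLC16A3, SLC16A7 and SLC16A9), the sodium-coupled carrier SLC5A8, and the chaperones BSG and EMB. Of these genes, SLC16A9 has been linked to carnitine and urate. The 7 genes have no shared set of substrates that was tested here. All were found by gene symbol in the deposited table, where each symbol had 1 row, so that the set holds 7 of 34037 genes. The tissue was ruminal wall taken at slaughter, and the animals were 12 Italian Mediterranean dairy buffaloes with a mean age of 8.2 years, all from 1 commercial farm and on trial for 60 days. The control group of 6 animals was fed a total mixed ration (TMR), and the treated group of 6 animals was fed TMR that included green ryegrass, which made up 30% of what they received. The rations were reported as isonitrogenous and isoenergetic. The treated ration also held more forage relative to concentrate, less corn silage and alfalfa hay and no soybean meal, among other changes. The green feed and these changes cannot be told apart. Each animal gave 1 library of stranded total RNA, with 10531541 to 12948372 read pairs counted on genes.

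In the rumen, microbes ferment plant material to acetate, propionate and butyrate, and the stratified squamous epithelium of the wall absorbs these acids and turns much of the butyrate into ketone bodies. Proton-linked carriers of the SLC16 family (also called monocarboxylate transporters, MCT) carry lactate, pyruvate, ketone bodies and short-chain fatty acids together with a proton, in the direction that the gradients set. Several of them reach the plasma membrane only when bound to an immunoglobulin-family partner: BSG (basigin) serves SLC16A1 and SLC16A3, and EMB (embigin) is the preferred partner of SLC16A7. SLC5A8 takes up the same kinds of acids together with sodium.

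The labelled tissue was checked against marker genes of the cell types that a piece of ruminal wall can hold. Of 12 squamous epithelial markers, 10 were found by symbol and all 10 were above 0, led by the basal keratin KRT5 with a mean of 1493 FPKM (fragments per length of the gene, scaled to the depth of the library). The 9 smooth muscle markers had mean levels between 0.382 FPKM for SYNPO2 and 7.70 FPKM for TAGLN, and ACTG2 and CNN1 were at 0 in at least 1 animal. Epithelial transcripts were thus abundant, and those of the muscle layer that the label of ruminal wall includes were scarce.

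The carriers and chaperones fell into a very abundant pair and 5 genes at low levels. BSG and SLC16A1 were ranked 97 and 128 by mean FPKM among the 22972 genes above 0 in at least 1 animal. SLC16A9 was ranked 6803, SLC5A8 11755, EMB 12829, SLC16A3 13846 and SLC16A7 16067. The pair of abundant genes had 8036 to 29767 reads in every animal, whereas SLC16A3, SLC16A7 and EMB had between 3 and 80 reads. FPKM is scaled by gene length, so these levels can be set side by side between genes as far as the lengths used are right. Over the 12 animals SLC16A1 had 284002 reads and BSG 196175, and BSG was ranked higher through lengths of 3013 bases for SLC16A1 and 1518 for BSG.

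**Figure D1:**
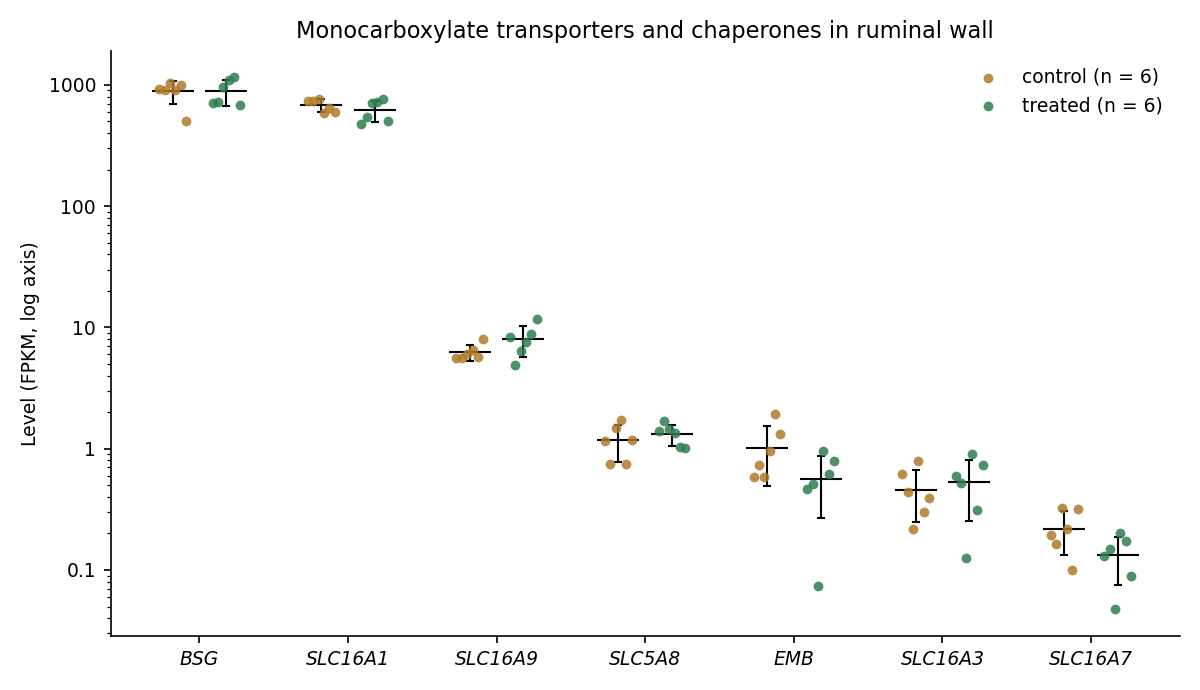
Level in FPKM on a log axis of the 7 genes in each animal, in order of mean level, with control and treated animals side by side; black lines are group means and bars are 1 SD. BSG and SLC16A1 lie between 471 and 1152 FPKM in all animals, SLC16A9 between 4.91 and 11.7 FPKM, and the control and treated points overlap for every gene.

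SLC16A1 (MCT1) is the widely expressed proton-linked carrier of lactate, short-chain fatty acids and ketone bodies. Its level was 582.5 FPKM at the lowest, 692 at the median and 763 at the highest in the control animals. In the treated animals the corresponding values were 471, 625.1 and 758 FPKM. Treated animals 1, 2 and 6 were below every control animal, while treated animals 3, 4 and 5 lay within the control range. The group means were 677 ± 79.6 FPKM (SD, n = 6) in control and 617 ± 124 FPKM (SD, n = 6) in treated animals. On the log2 scale the fold change of treated over control was -0.15 (SE 0.15), with a 95% interval from -0.47 to 0.16. This corresponds to a level between 0.723 and 1.12 times that of the controls. The difference did not pass the test (limma p = 0.319, adjusted p over 12642 genes = 0.9997; exact permutation p = 0.286). In bulk tissue, fewer cells of a type and less RNA per cell cannot be told apart, for this gene and for those that follow.

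SLC16A1 and the smooth muscle markers were positively correlated across the animals, but the correlation did not pass the adjustment. All 9 were above 0 in at least 1 animal. Their summed level was 14.6 to 34.8 FPKM in control and 5.16 to 25.9 FPKM in treated animals (exact permutation p = 0.0541, not adjusted). The 2 lowest sums were those of treated animals 1 and 2, at 5.16 and 7.08 FPKM. The study had called MYH11, DES and SYNPO2 of this list lower in the same treated animals, so the p-value is no independent support. Sums of the other marker lists gave exact permutation p-values from 0.266 to 0.961. Pearson's r between the smooth muscle score and log2 SLC16A1 was 0.75 (permutation p = 0.00539, adjusted over 35 pairs of the 7 genes with the scores of squamous epithelium, smooth muscle, fibroblasts, immune cells and endothelium 0.189) and Spearman's rho was 0.72 (permutation p = 0.0105, adjusted 0.367). Without treated animals 1 and 2, which were farthest from the median of the score, r was 0.56, and it was 0.42 within the control and 0.83 within the treated animals (exact permutation p = 0.382 and 0.0625). The joint level of smooth muscle and fibroblast markers was also entered as a covariate. The log2 fold change of SLC16A1 was then 0.01 in place of -0.15, with a limma interval from -0.32 to 0.33. Neither value passed the test. The fibroblast score alone had an r of 0.40 with log2 SLC16A1 (permutation p = 0.200, adjusted 0.811), and -0.27 without treated animals 1 and 2. For squamous epithelium r was -0.32 (permutation p = 0.311, adjusted 0.811), and 0.44 without those animals. It was 0.41 for endothelium and -0.17 for immune cells. The part of muscle tissue in the level of SLC16A1 was not tested.

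SLC16A1 made up nearly all of the summed level of the SLC16 genes analysed. Of 13 such genes 12 were above 0 in at least 1 animal, and SLC16A1 accounted for 96.4 to 98.1% of their summed FPKM in each animal. SLC16A9 was next, with 0.736 to 2.26% of the sum. SLC16A3 (MCT4), the carrier best known for lactate export from glycolytic cells, was 686 to 5573 times lower in FPKM than SLC16A1 in the same animal.

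SLC16A9 (MCT9), which has been linked to the transport of carnitine and urate, was the second most abundant of the carriers. Its level was 5.56 FPKM at the lowest, 5.87 at the median and 7.97 at the highest in the control animals. In the treated animals it was 4.91, 7.96 and 11.7 FPKM. Treated animals 1, 5 and 6 were above every control animal, treated animal 2 was below every control animal, and the ranges overlapped. The treated group was also more spread out, with a coefficient of variation of 29.1% against 14.9% in the control group. Treated over control, the log2 fold change was 0.32 (SE 0.19), with a 95% interval from -0.09 to 0.72 (limma p = 0.117, adjusted p = 0.9997; exact permutation p = 0.139). Without treated animal 2 it was 0.45 with a nominal limma p of 0.0195, and without treated animal 6, the highest, it was 0.20 with a limma p of 0.264.

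SLC16A3 was at 0.218, 0.415 and 0.787 FPKM at the lowest, median and highest control animal, and at 0.127, 0.561 and 0.900 FPKM in the treated animals. The lowest and the highest of the 12 values were both from treated animals (3 and 4), and the other 4 treated animals lay within the control range. This gave a log2 fold change of 0.10 (SE 0.47), with a 95% interval from -0.92 to 1.11 (limma p = 0.840; exact permutation p = 0.855). Its sign turned to -0.10 without treated animal 4. The gene had 7 to 50 reads per animal, and its reads varied 5.61 times as much as Poisson counts in the control and 8.19 times as much in the treated animals. The read threshold for testing was reached by 1 control animal and 2 treated animals.

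SLC16A7 (MCT2), a carrier with high affinity for pyruvate and lactate, was the lowest of the 7 genes. Its level was 0.09997, 0.207 and 0.322 FPKM at the lowest, median and highest control animal, and 0.0476, 0.140 and 0.203 FPKM in the treated animals. Treated animals 3 and 6 were below every control animal, and the other 4 were within the control range. Its log2 fold change was -0.72 (SE 0.46), with a 95% interval from -1.71 to 0.28 (limma p = 0.145; exact permutation p = 0.0801). Since 2 control animals and 0 treated animals reached the read threshold, the gene entered the test through the group in which it was higher, and its sign is no support for a difference.

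SLC5A8 (SMCT1), the sodium-coupled carrier, was at 0.746, 1.17 and 1.74 FPKM at the lowest, median and highest control animal. In the treated animals it was at 1.01, 1.37 and 1.69 FPKM, all within the control range. A log2 fold change of 0.21 (SE 0.25) was found, with a 95% interval from -0.33 to 0.75 (limma p = 0.420; exact permutation p = 0.387). SLC5A12, the other sodium-coupled carrier of these acids, was listed at 0 in all 12 animals.

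BSG is the chaperone of SLC16A1 and SLC16A3 and is also a surface glycoprotein with roles of its own. Its level was 503, 917 and 1041 FPKM at the lowest, median and highest control animal, and 681, 834 and 1152 FPKM in the treated animals. Control animal 6 was the lowest of all 12, while the remaining 5 control animals lay between 908 and 1041 FPKM. The means were 881 ± 193 FPKM (SD, n = 6) in control and 886 ± 212 FPKM (SD, n = 6) in treated animals. The diets differed by 0.01 on the log2 scale (SE 0.20), with a 95% interval from -0.42 to 0.44 (limma p = 0.953; exact permutation p = 0.961). Without control animal 6 the log2 fold change was -0.14 (limma adjusted p = 0.9999).

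EMB, the other chaperone, was at 8.74e-05 to 0.00263 times the FPKM of BSG in the same animal. Its level was 0.584, 0.844 and 1.92 FPKM at the lowest, median and highest control animal, and 0.0733, 0.565 and 0.949 FPKM in the treated animals. Treated animals 1, 2 and 3 were below every control animal, and the other 3 were within the control range. Treated animal 3 had 3 reads, with an exact Poisson interval of 0.619 to 8.77 reads that covers counting error only, and so was at the floor. The fold change on the log2 scale was -1.01 (SE 0.54), with a 95% interval from -2.16 to 0.15 (limma p = 0.0821, adjusted p = 0.9997; exact permutation p = 0.0931). Without treated animal 3 it was -0.51, and without treated animal 4 it was -1.22 with a nominal limma p of 0.0465. Like SLC16A7, EMB reached the read threshold in 2 control animals and 0 treated animals. Its sign and its nominal p-values are therefore no support for a difference.

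Over the 7 genes, 0 had a nominal limma p below 0.05 and 0 an adjusted p below 0.05, where 1.24% and 0% of the 12642 genes tested did. The lowest nominal p was that of EMB, which entered the test through the control animals. None of the 7 had control and treated ranges that did not overlap, which held for 0.0554% of the genes tested. Of the 7 log2 fold changes 4 were above 0 and 3 below, with a median of 0.01, where the median over all genes tested was 0.01. The intervals were narrowest for SLC16A1 and widest for EMB, in the same order as the spread between animals.

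**Figure D2:**
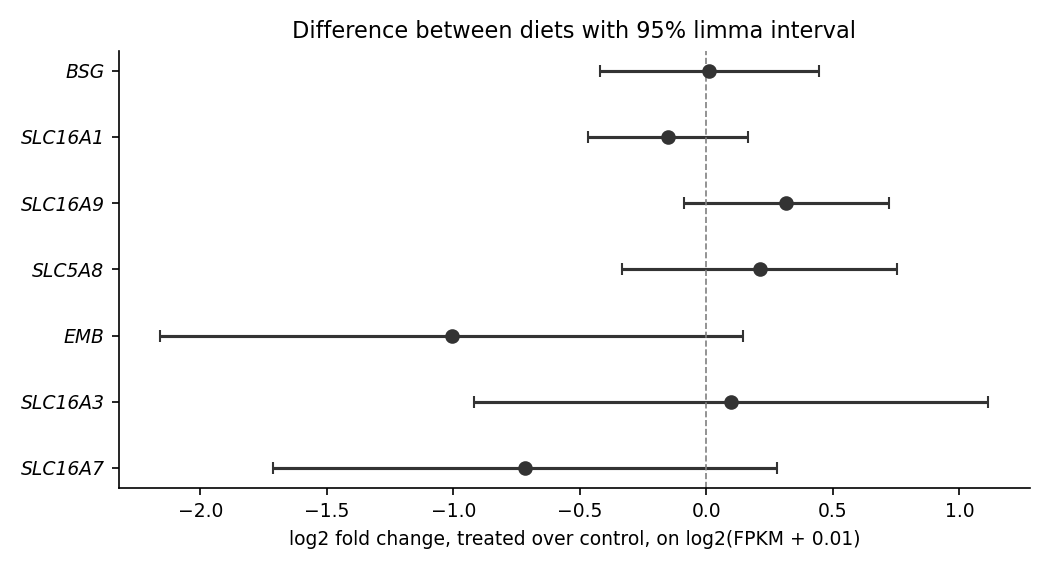
Log2 fold change of treated over control on log2(FPKM + 0.01), with its 95% limma interval, for each gene (6 control and 6 treated animals). All 7 intervals include 0, and they reach from -2.16 to 0.15 for EMB but only from -0.47 to 0.16 for SLC16A1.

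The order of the levels was taken from the mean log2 levels of the same 12 animals and then tested within animals. The p-values therefore describe how consistent each difference was between animals, and are no independent support for the order. In each animal the log2 FPKM of neighbours in the order were subtracted, and the differences were tested over all exact sign patterns, with adjustment over 6 pairs. BSG exceeded SLC16A1 in 11 of 12 animals, by 0.43 ± 0.25 on the log2 scale (SD, n = 12; exact adjusted p = 0.00195). The order of this pair rests on the gene lengths used, whose error the test does not cover. SLC16A1 exceeded SLC16A9 in 12 of 12 animals by 6.53 ± 0.51, and SLC16A9 exceeded SLC5A8 in 12 of 12 by 2.51 ± 0.56 (exact adjusted p = 0.00146 for each, from the smallest p that the sign patterns can give, 0.000488). SLC5A8 exceeded EMB in 10 of 12 animals by 0.89 ± 1.32 (exact adjusted p = 0.0316), a call that was lost when control animal 1, 3 or 4 or treated animal 1, 2 or 3 was left out (exact adjusted p up to 0.0633). EMB and SLC16A3 did not differ beyond their spread, with EMB higher in 8 of 12 animals and a difference of 0.56 ± 0.97 (exact adjusted p = 0.0703), although without treated animal 3 the difference was 0.67 (exact adjusted p = 0.0422). SLC16A3 exceeded SLC16A7 in 11 of 12 animals by 1.41 ± 0.90 (exact adjusted p = 0.00220).

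How much each gene varied between animals followed a different order from its level. The within-group SD of log2 FPKM was 0.24 for SLC16A1, smaller than that of most genes: 24.6% of the genes tested had one as small or smaller. The corresponding share was 45.5% for SLC16A9, 51.2% for BSG and 57.9% for SLC5A8. SLC16A7, SLC16A3 and EMB were among the more variable genes, at 83.9%, 92.3% and 95.3%. The reads of these low genes varied 3.58 to 11.2 times as much within each group as Poisson counts would.

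BSG and its client SLC16A1 had the highest correlation across animals of the 21 pairs of these genes. Pearson's r of their log2 FPKM over the 12 animals was 0.71 (permutation p = 0.00846, adjusted over 21 pairs 0.178), and Spearman's rho was 0.78 (permutation p = 0.00423, adjusted 0.0888), and neither passed the adjustment; 1 of the 21 pairs had an unadjusted permutation p below 0.05. Without the 2 animals farthest from the median of SLC16A1, r was 0.68. Within the treated animals r was 0.96 (exact permutation p = 0.0264), and within the control animals, which include control animal 6 with its low BSG, it was 0.55 (exact permutation p = 0.207). Both genes were at their lowest treated levels in treated animals 1, 2 and 6. Of the 12641 other genes tested, 103 (0.815%) had a higher r with SLC16A1 than BSG had.

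**Figure D3:**
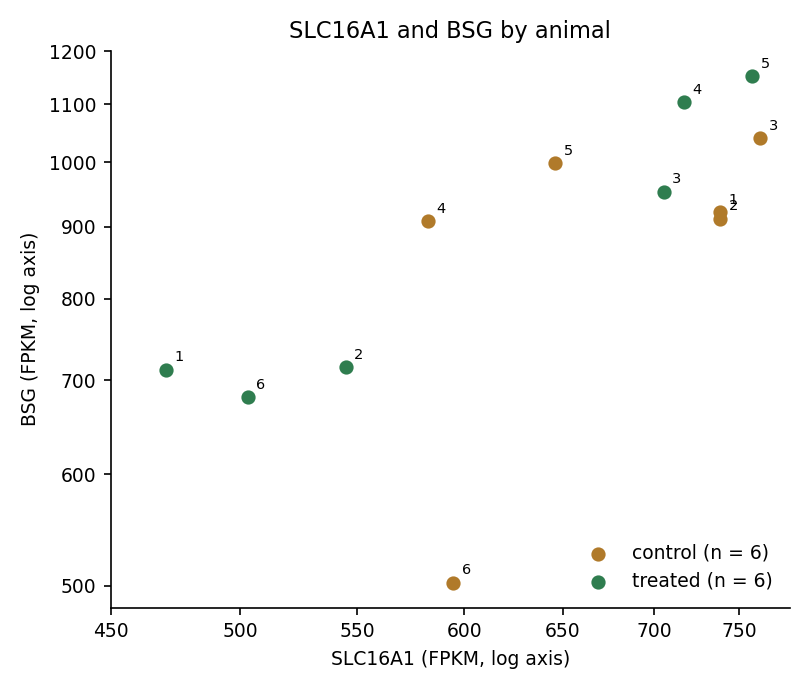
BSG against SLC16A1, both in FPKM on log axes, with 1 point per animal, numbered by replicate and coloured by diet. Treated animals 1, 2 and 6 are low in both genes, and control animal 6 lies apart at 503 FPKM of BSG.

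The ratio of BSG to SLC16A1 was 0.845 to 1.56 in the control animals and 1.31 to 1.54 in the treated animals. On the log2 scale the treated group was higher by 0.16 (exact permutation p = 0.264, adjusted over 3 ratios 0.396). The log2 ratio of SLC16A3 to SLC16A1 differed by 0.25 (exact permutation p = 0.673, adjusted 0.673) and that of EMB to BSG by -1.02 (exact permutation p = 0.154, adjusted 0.396). None of these 3 balances between carriers and chaperones passed the test. Their sizes rested on single animals: the first difference was 0.046 without control animal 6, the second ran from 0.030 without control animal 3 to 0.64 without treated animal 3, and the third was -0.49 without treated animal 3.

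SLC16A3, SLC16A7 and EMB had in common that treated animal 3 was the lowest of the 12 in each, and this animal was also the lowest in immune cell markers. Of 8 such markers 7 were above 0 in at least 1 animal and the B cell gene CD79B was at 0 in all 12. Their summed level was 22.7 to 35.4 FPKM in control and 16.04 to 35.9 FPKM in treated animals, with the lowest sum in treated animal 3. In that animal the pan-leukocyte gene PTPRC was at 5.04 FPKM and the T cell gene CD3E at 2.17 FPKM, both the lowest of the 12.

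The score of these 7 markers was positively correlated with all 3 genes before adjustment. Pearson's r was 0.69 for EMB (permutation p = 0.0291, adjusted over 35 pairs 0.306), 0.68 for SLC16A7 (permutation p = 0.0171, adjusted 0.299) and 0.61 for SLC16A3 (permutation p = 0.0350, adjusted 0.306). Spearman's rho was 0.30, 0.44 and 0.37 in the same order (permutation p = 0.343, 0.157 and 0.236, adjusted 0.735 for each). Without treated animal 3 and control animal 1, which were farthest from the median of the score, r was 0.28, 0.35 and 0.16, so that the relations rest largely on those animals. Without treated animal 3 alone, an alternative chosen after seeing the data, r over the other 11 animals was 0.14, 0.35 and 0.22 and rho 0.09, 0.27 and 0.18. Within the control animals r was 0.13, 0.26 and 0.63 (exact permutation p = 0.783, 0.622 and 0.210), and within the treated animals, with treated animal 3, it was 0.89, 0.89 and 0.71 (exact permutation p = 0.117, 0.0306 and 0.147). For SLC16A1, SLC16A9, SLC5A8 and BSG the r with this score lay between -0.27 and 0.10. Of all 35 pairs of gene and marker list, 0 had an adjusted and 4 an unadjusted permutation p below 0.05. The part of immune cells in these levels was not tested.

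**Figure D4:**
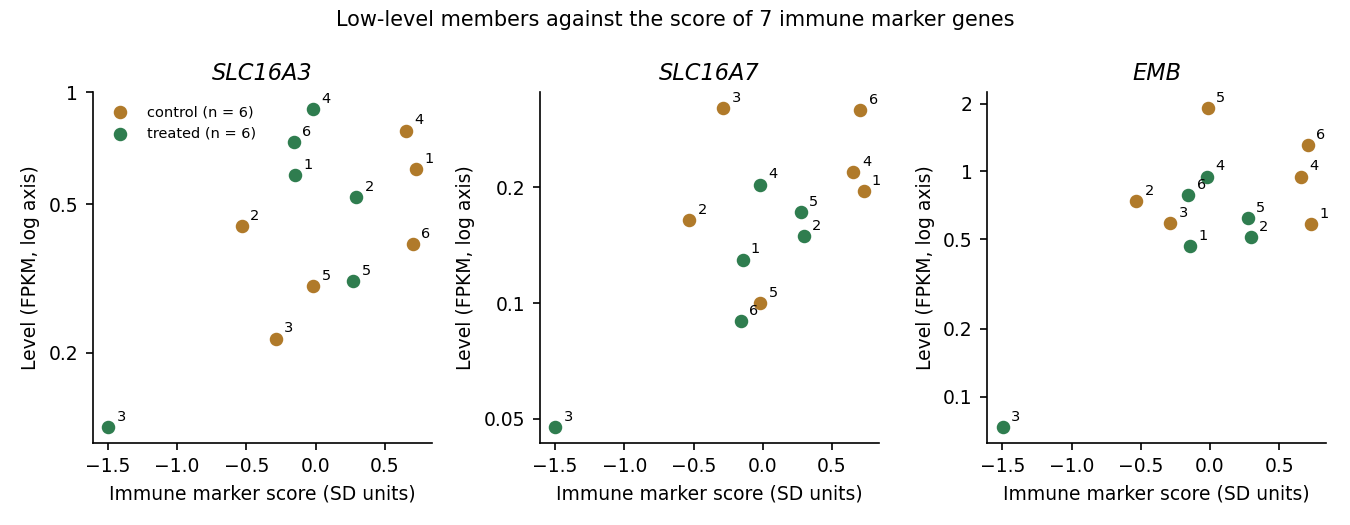
Level in FPKM on a log axis of SLC16A3, SLC16A7 and EMB against the mean standardized log2 level of 7 immune marker genes, with 1 point per animal, numbered by replicate and coloured by diet. Treated animal 3 is at the lower left of each panel with a score of -1.50, and r over the other 11 animals is 0.22 for SLC16A3, 0.35 for SLC16A7 and 0.14 for EMB.

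The correlations of EMB with SLC16A7 and SLC16A3 did not pass the adjustment. EMB and SLC16A7 had an r of 0.55 and EMB and SLC16A3 an r of 0.52 (permutation p = 0.0698 and 0.0835, adjusted over 21 pairs 0.585 for each), with a rho of 0.32 and 0.23 (permutation p = 0.311 and 0.471, adjusted 0.895 for each). Within the control animals both were below 0, at -0.48 and -0.13 (exact permutation p = 0.347 and 0.810), and within the treated animals they were 0.83 and 0.90 (exact permutation p = 0.0681 and 0.0292). Without the 2 animals farthest from the median of the first gene, SLC16A7 or SLC16A3, r was 0.07 and -0.30. Without treated animal 3 alone, again chosen after seeing the data, it was -0.052 and -0.11. Leaving these and SLC16A1 with BSG aside, r over all 12 animals lay between -0.44 and 0.31. The lowest within-group p of the 21 pairs was that of SLC16A9 with SLC5A8 in the treated animals, at an r of -0.91 (exact permutation p = 0.0181). Within the control animals the r of this pair was 0.43 (exact permutation p = 0.414), and over all 12 it was -0.09. The within-group p-values were not adjusted for the number of pairs.

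For each gene, the 3 genes with the highest r over the 12 animals among those tested were listed as a description of likeness, with no test. Each r is among the highest of all genes tested, and no animal was left out. Treated animal 3, in which EMB had 3 reads, was included. The cell types behind these likenesses were not tested. For EMB the 3 genes were TRAF3IP3, CD3G (a subunit of the T cell receptor complex) and NLRC5 (a regulator of MHC class I genes), with r from 0.86 to 0.88. For SLC16A7 they were the thrombin receptor F2R, GPR171 and ZUP1 (0.85 to 0.88), and for SLC16A3 they were IFNAR2 (a subunit of the type I interferon receptor), TCP1 and the cytokine IL16 (0.87 to 0.92). SLC16A1 was followed most closely by ASB8, BBS9 and HADH (0.87 to 0.92). HADH, a mitochondrial enzyme of fatty acid oxidation, was at a mean of 488 FPKM. BSG was followed by AP2S1 (a subunit of the endocytic adaptor AP2), PRADC1 and TWF2 (0.96 to 0.97), SLC16A9 by HPRT1, VPS36 and GSDMC (0.92 to 0.93), and SLC5A8 by TMEM185B, CDK8 and ASAP2 (0.83 to 0.84).

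The other genes of the pathway were taken from a list of 21, of which 17 were above 0, 2 were listed at 0 (SLC16A8 and SLC5A12) and 2 were not found by symbol and not analysed here. Of the 10 that were tested 5 were higher and 5 lower in the treated animals. None of them had a nominal limma p below 0.05, with a lowest p of 0.132 for OXCT1, and their median log2 fold change was -0.01. The third chaperone, NPTN (neuroplastin), of the same immunoglobulin family as BSG and EMB, was at 41.62 ± 5.56 FPKM (SD, n = 6) in control and at 41.8 ± 7.28 FPKM (SD, n = 6) in treated animals, between BSG and EMB in level.

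Among the remaining SLC16 genes, SLC16A5 was at a mean of 4.17 FPKM and SLC16A13 at 2.74 FPKM over the 12 animals. The aromatic amino acid carrier SLC16A10 was at 0.338 FPKM. Of the enzymes of ketone body metabolism, the thiolase ACAT1 had a mean of 570 FPKM and the 3-hydroxybutyrate dehydrogenase BDH1 a mean of 366 FPKM. OXCT1, the enzyme with which cells use ketone bodies, was at 4.07 FPKM. LDHB, the lactate dehydrogenase subunit common in oxidative tissues, was at 114 FPKM, and the mitochondrial pyruvate carrier subunits MPC1 and MPC2 were at 21.97 and 85.4 FPKM. The lactate receptor HCAR1 was at 0.182 FPKM, with at most 11 reads in an animal.

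**Figure D5:**
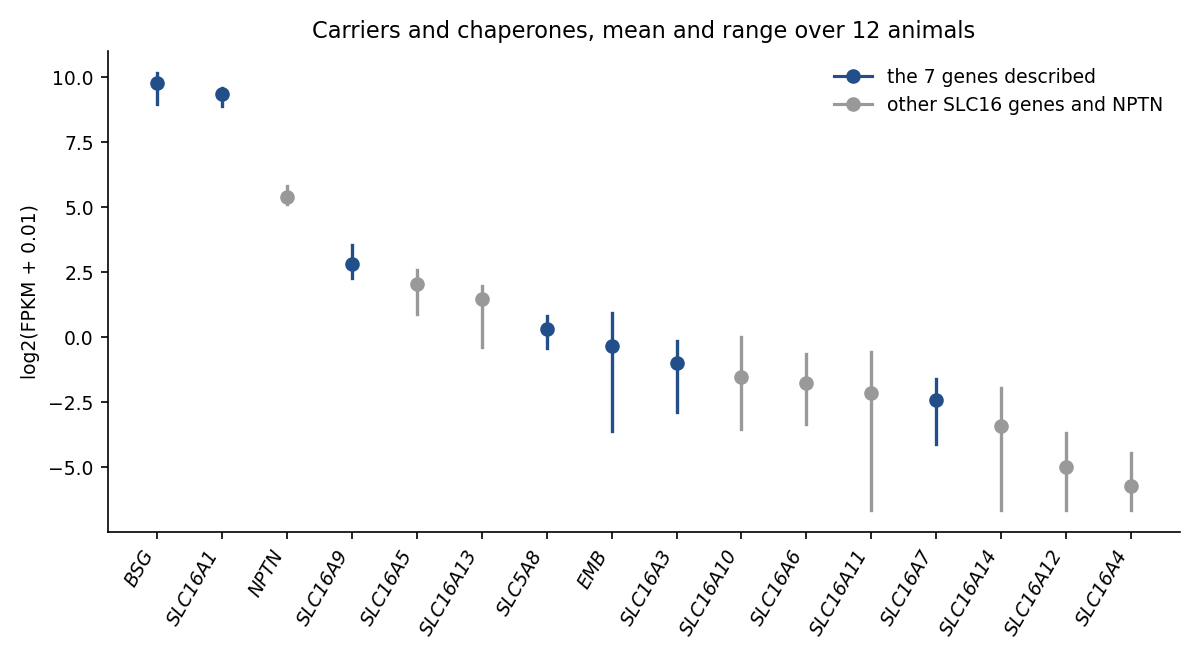
Mean (point) and range over the 12 animals (line) on the log2(FPKM + 0.01) scale for the 7 genes (blue) and for other SLC16 genes above 0 and NPTN (grey), in order of mean level. BSG and SLC16A1 stand above NPTN at 41.7 FPKM, and the remaining carriers are below 12 FPKM in all animals.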

How the data were processed

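The authors trimmed the reads with Trimmomatic 0.39, used STAR 2.5.2b for alignment to the UOA_WB_1 buffalo genome, and obtained strand-specific gene counts from featureCounts 2.0.0. The deposited values are FPKM per gene for each animal, and no gene coordinates or sequences were used here. Of 16 columns, 4 matched no sample and were not used. Each FPKM divided by what a single read is worth gives a whole number, and in this way the reads of all 22972 genes above 0 were recovered (100% of them whole, with gene lengths within a relative 2.19e-14 of whole numbers). For 500 genes the reads were multiplied until the length was whole, so whole lengths are in part set by the procedure. A gene was tested if any animal reached the authors' threshold of 41.64 reads on the TMM scale, which left 12642 genes, with limma 3.58.1 (R 4.3.3) on log2(FPKM + 0.01), a trended variance and Benjamini-Hochberg adjustment. Single genes were also tested by a two-sided exact permutation test over 924 assignments, with a smallest possible p of 0.00216. Correlations used log2 values and 100000 permutations, or all 720 pairings within a group. Marker scores were means of standardized log2 values, for lists with at least 3 genes above 0. Alternatives covered pseudocounts, filters, scaling, voom, covariates, the replicate number and single animals left out. Permutations and figures used Python with numpy, scipy and matplotlib. The 7 genes and all lists were chosen with earlier results of these data known. A few genes of the pathway list are not reported here. The text names the 7 genes, the pathway and marker lists, and the 3 genes most like each.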

Additional observations from a re-analysis of the deposited data

Results flagged for a closer look

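In 20 groups of 6 values, the 7 genes and the 3 log2 ratios in each diet group, the highest or the lowest animal was compared with the nearest of the others by Dixon's criterion, which chance passes in about 1 of 20 groups. BSG in control animal 6 was at 503 FPKM, with a gap of 0.753 of the range of the group, above the critical 0.625. The log2 ratio of EMB to BSG in treated animal 3 was -13.48, with a gap of 0.707 of the range, and rests on 3 reads of EMB.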

How the results depend on the processing

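In all 23 alternative fits and in the main one, 0 of the 7 genes had an adjusted limma p below 0.05 (smallest 0.967), and so did 0 of all genes tested. SLC16A7 and SLC5A8 kept their direction and stayed above a nominal p of 0.05 in all of the 23, but not their size. SLC16A7 reached the read threshold in control animals only, so its kept direction is no support for a difference. With a pseudocount of 1 the log2 fold change was -0.11 for SLC16A7, 0.10 for SLC5A8 and -0.35 for EMB. The log2 fold change of SLC16A1 was 0.0089 with the muscle and fibroblast score as a covariate. With single animals left out, it ranged from -0.22 to -0.079 for SLC16A1, from 0.094 to 0.34 for SLC5A8, from -0.91 to -0.48 for SLC16A7, from -0.10 to 0.45 for SLC16A3 (-0.09 without control replicate 3, -0.04 without treated replicate 6), from 0.20 to 0.45 for SLC16A9, from -0.14 to 0.081 for BSG (-0.02, -0.06 and -0.07 without treated replicates 3, 4 and 5) and from -1.22 to -0.51 for EMB. SLC16A9 passed a nominal p of 0.05 at a log2 fold change of 0.40 with the epithelial score as a covariate (limma, unadjusted p = 0.0427; 1 of the 7 genes). The count of the 7 genes at a nominal p below 0.05 was 0 to 1 with single animals left out. The count over all genes depended also on how many were tested. Of 12642 genes it was 157 in the main fit, 144 by voom on the recovered reads, 342 with the muscle and fibroblast covariate and 330 with the epithelial covariate. It was 562 of 22972 genes without a filter and 301 of 16450 with at least 0.1 FPKM in 6 animals. With single animals left out it was 142 to 321 of 12547 to 12622 genes, the highest without treated replicate 6. The causes of these changes were not tested.

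With the replicate number as a block (replicate block in limma), 2 of the 7 genes were below a nominal threshold of 0.05, and so were 322 of the 12642 genes tested. In the main fit these counts were 0 and 157. The 2 genes were SLC16A9 (log2 fold change 0.32, limma adjusted p = 0.9993, unadjusted 0.0494) and EMB (-1.01, limma adjusted p = 0.9993, unadjusted 0.0298). EMB reached the read threshold in control animals only, so its unadjusted p is no support for a difference. The deviations of same-numbered animals correlated between -0.01 and 0.42, with a mean of 0.21 against -0.04 for animals of different number. They were over 0.1 in 4 of 6 pairs, and 8 of 12 animals correlated best with their own number. The numbers are those of the sample descriptions, and the sample titles number the animals differently. The criterion for pairing, over 0.1 in every pair, was not met, and what the number marks was not tested.

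The level difference of SLC5A8 and EMB was 0.59 to 1.09 on the log2 scale with single animals left out, and that of EMB and SLC16A3 was 0.37 to 0.67. The correlation of SLC16A7 with EMB was -0.48 within control, and that of SLC16A3 with EMB was -0.30 without the 2 farthest animals and -0.13 within control. Without treated replicate 3 alone, chosen after seeing the data, these correlations were -0.052 and -0.11. EMB, SLC16A3 and SLC16A7 had 3 to 80 reads per animal, and their spread within groups was 3.58 to 11.2 times that of Poisson counts.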
